A study of Mus musculus with 6 samples.

Results

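A set of 10 genes that encode proteins of neutrophil granules and cytosol was followed in 6 mouse RNA-seq libraries. The genes were taken by symbol, matched to Ensembl gene IDs, and ordered by the compartment of their protein. The primary granule genes were Mpo, Elane, Prtn3 and Ctsg, the secondary granule genes were Ngp, Camp, Ltf and Lcn2, and the cytosolic genes were S100a8 and S100a9. All 10 were found among the 38561 gene IDs of the count tables, and all 10 passed the filter on low counts with 19024 genes in all. The study concerns mesenchymal tumours arising from pericytes, the contractile cells that wrap small vessels. It has 3 groups of 2 libraries each. The NG2 cells were sorted NG2-expressing cells from normal skeletal muscle, described as perivascular. The osteosarcomas were primary bone tumours, and the soft tissue sarcomas were primary subcutaneous tumours. Comparisons with the NG2 cells thus set tumours against sorted cells. One osteosarcoma came from the right tibia and the other from the lumbar spine.

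Every library, the normal cells included, came from NG2-Cre;p53flox/flox mice on a mixed background. In that strain Cre is driven by the promoter of NG2 (Cspg4) and deletes floxed p53, so the NG2 cells are not a p53 wild-type control and no group without the alleles was analysed here. Ages and treatments are not given in the labels used here. Whether the libraries of a group came from separate animals is not stated, so p-values measure the spread between these libraries, which may be technical. Total gene counts ran from 27693585 to 58126832 per library. Each group was sequenced in a flow cell lane of its own, as the names of the deposited data show, so lane and group cannot be told apart. Trp53, the floxed gene, had 101.0 and 82.3 CPM (counts per 1000000 reads counted in genes) in the NG2 cells and between 24.3 and 32.6 in the tumours, but a count over the whole gene does not read the deleted exons alone. Of 7 pericyte markers, 1 fell and 2 rose in the osteosarcomas, and 1 fell and 0 rose in the soft tissue sarcomas. Over all tested genes, 11.0% fell and 10.5% rose in the osteosarcomas, and 9.4% fell and 9.89% rose in the soft tissue sarcomas. The calls of these markers did not hold when either NG2 library was left out. Rgs5 had 772.3 and 1289.6 CPM in the NG2 cells against at most 151.3 in a tumour, while Pdgfrb, at 20.1 and 28.9 CPM, and Mcam, at 9.31 and 12.0, were below all 4 tumours. Cspg4 itself was lower in the NG2 cells, at 38.6 and 30.6 CPM, than in 3 of the 4 tumours, and close to the spinal osteosarcoma at 37.7. In the NG2 cells 7 B cell markers summed to 4995.3 and 1675.9 CPM, against 898.1 and 1435.0 for the pericyte markers. The osteosarcomas carried the osteoblast markers, with sums of 67973.8 and 56711.8 CPM.

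Neutrophils store proteins that kill and digest microbes in granules laid down in sequence as the cells mature in the bone marrow. Primary (azurophil) granules form first, at the promyelocyte stage, and hold myeloperoxidase and serine proteases, while secondary (specific) granules form later and hold lactoferrin and cathelicidin. S100a8 and S100a9 form calprotectin, the most abundant protein complex of the neutrophil cytosol, and are also made by monocytes. Mature neutrophils keep the proteins but have largely switched off transcription of the primary granule genes, and C/EBP factors and PU.1 are known regulators of granule genes.

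The 10 genes lie at 6 places of the genome (GRCm38 throughout). Elane (ENSMUSG00000020125, chr10:79886247-79888215, plus strand) encodes neutrophil elastase, and Prtn3 (ENSMUSG00000057729, chr10:79874476-79883174, plus strand), 3072 bases away with 0 protein-coding genes between them, encodes proteinase 3. S100a8 (ENSMUSG00000056054, chr3:90668978-90670035, plus strand) and S100a9 (ENSMUSG00000056071, chr3:90692632-90695721, minus strand) are 22596 bases apart, also with 0 protein-coding genes between them. Camp (ENSMUSG00000038357, chr9:109847379-109849617, minus strand), Ngp (ENSMUSG00000032484, chr9:110419747-110423012, plus strand) and Ltf (ENSMUSG00000032496, chr9:111019271-111042767, plus strand) lie within 1 stretch of chromosome 9, with 8 protein-coding genes between Camp and Ngp and 20 between Ngp and Ltf. Mpo (ENSMUSG00000009350, chr11:87793581-87804413, plus strand), Ctsg (ENSMUSG00000040314, chr14:56099881-56102574, minus strand) and Lcn2 (ENSMUSG00000026822, chr2:32384633-32388252, minus strand) stand alone. An exon of Prtn3 overlaps Plppr3 on the opposite strand, and the strand setting of the counting is not given in the sources used here, so Prtn3 values are uncertain where they are low. Plppr3 itself ran from 2.09 to 11.9 CPM over the 6 libraries, above Prtn3 in every library except NG2 replicate 2. Mpo overlaps the antisense gene Gm11505, which had 0 counts in all 6 libraries.

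Promoter windows of 6 of the genes are shown as examples from each class of granule gene, chosen with the motif matches known, because these genes were high together in 1 library. The windows run from 250 bases before to 50 bases after the RefSeq start on GRCm38.p6, 300 bases in all, read 5′ to 3′ on the strand of the gene. Capitals mark matches to GAGGAA, a core of PU.1 sites, or TTNNGNAA, a core of C/EBP sites, each searched on both strands, so a match of GAGGAA on the other strand reads TTCCTC. The windows are Elane at chr10:79886062-79886361 (plus strand), Prtn3 at chr10:79879417-79879716 (plus strand), Ngp at chr9:110419558-110419857 (plus strand), Ltf at chr9:111019042-111019341 (plus strand), S100a8 at chr3:90668821-90669120 (plus strand) and S100a9 at chr3:90695672-90695971 (minus strand).
Elane: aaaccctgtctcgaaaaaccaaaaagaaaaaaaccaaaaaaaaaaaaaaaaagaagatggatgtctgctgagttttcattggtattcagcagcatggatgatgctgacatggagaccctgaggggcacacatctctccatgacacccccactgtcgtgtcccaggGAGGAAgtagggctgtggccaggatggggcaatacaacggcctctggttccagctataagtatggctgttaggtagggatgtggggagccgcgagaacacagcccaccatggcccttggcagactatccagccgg
Prtn3: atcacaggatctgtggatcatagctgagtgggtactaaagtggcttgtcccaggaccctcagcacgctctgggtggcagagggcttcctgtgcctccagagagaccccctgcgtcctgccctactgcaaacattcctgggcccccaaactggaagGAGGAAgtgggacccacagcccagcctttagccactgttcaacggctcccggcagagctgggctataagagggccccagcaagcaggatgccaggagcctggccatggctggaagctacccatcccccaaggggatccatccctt
Ngp: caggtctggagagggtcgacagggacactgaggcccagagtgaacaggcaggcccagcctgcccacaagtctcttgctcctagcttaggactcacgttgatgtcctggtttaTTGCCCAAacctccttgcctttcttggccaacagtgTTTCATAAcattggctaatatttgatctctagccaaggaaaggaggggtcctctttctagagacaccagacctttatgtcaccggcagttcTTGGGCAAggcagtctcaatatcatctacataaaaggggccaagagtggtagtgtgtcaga
Ltf: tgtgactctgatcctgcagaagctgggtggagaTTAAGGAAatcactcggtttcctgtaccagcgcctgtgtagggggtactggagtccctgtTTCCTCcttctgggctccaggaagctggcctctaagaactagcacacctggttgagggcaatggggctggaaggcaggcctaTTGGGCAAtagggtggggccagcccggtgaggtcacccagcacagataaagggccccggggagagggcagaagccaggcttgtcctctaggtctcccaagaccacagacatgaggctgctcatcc
S100a8: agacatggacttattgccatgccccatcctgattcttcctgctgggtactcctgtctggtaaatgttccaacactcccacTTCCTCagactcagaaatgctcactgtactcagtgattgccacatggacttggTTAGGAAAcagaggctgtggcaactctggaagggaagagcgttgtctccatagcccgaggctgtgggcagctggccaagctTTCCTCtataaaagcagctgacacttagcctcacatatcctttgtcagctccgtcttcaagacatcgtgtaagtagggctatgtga
S100a9: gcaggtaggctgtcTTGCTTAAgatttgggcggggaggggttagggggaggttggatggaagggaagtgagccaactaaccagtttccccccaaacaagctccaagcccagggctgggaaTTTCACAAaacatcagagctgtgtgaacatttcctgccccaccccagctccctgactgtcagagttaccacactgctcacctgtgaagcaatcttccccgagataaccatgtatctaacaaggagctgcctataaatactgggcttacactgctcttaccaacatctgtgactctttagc

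All 10 genes had a promoter in the RefSeq table. GAGGAA was found in 7 of the 10 windows, against 28.3% of 32851 promoters of the same length. The 4 primary granule genes each carried it on the gene's own strand, as did 15.6% of all promoters, 85 bases before the start in Elane, 95 in Prtn3, 216 in Ctsg, and at 247 and 224 in Mpo. In Ltf, Lcn2 and S100a8 it lay on the other strand. TTNNGNAA was found in 5 of the 10 windows, against 40.7% of all promoters, with 3 matches in Ngp, 2 each in Ltf and S100a9, and 1 each in Lcn2 and S100a8. None of the 4 primary granule genes, nor Camp, held these letters in its window. Ngp, 11 bases before its start, and Ltf, 75 bases before its start, carried the same match, TTGGGCAA. There were 0 overlaps between matches of the 2 motifs. These are matches of letters and not sites shown to be bound.

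Granule transcripts were abundant in 1 of the 6 libraries. NG2 replicate 2 had the highest value for 10 of 10 genes, and the genes together made up 3381.1 CPM there against 67.5 in NG2 replicate 1. The osteosarcomas had summed values of 22.2 and 28.7 CPM and the soft tissue sarcomas of 14.1 and 19.8 CPM. CPM here were scaled by TMM (trimmed mean of M values), which corrects for differences in library composition. As a share of all gene counts, the members held 0.331% (95% Wilson interval 0.329 to 0.332) in NG2 replicate 2 and 0.00618% (0.00594 to 0.00643) in NG2 replicate 1. The 4 tumour shares lay between 0.00145% (0.00136 to 0.00155) and 0.00287% (0.00268 to 0.00308). Intervals and floors cover counting error only, since the cDNA was amplified and its molecules were not tagged. In these bulk samples, fewer cells of a type and less RNA per cell cannot be told apart.

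**Figure D1:**
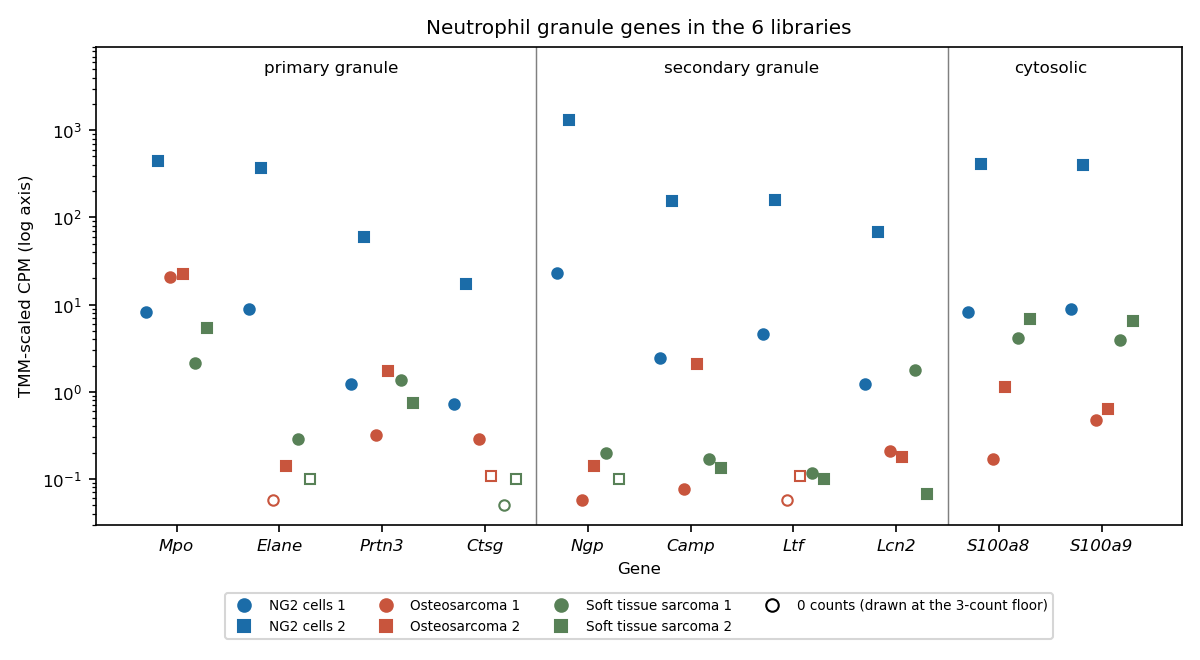
TMM-scaled CPM (log axis) of the 10 granule genes in the 6 libraries, coloured by group, with genes ordered as primary, secondary and cytosolic. NG2 replicate 2 is the highest point for every gene, from 17.2 CPM for Ctsg to 1298.3 CPM for Ngp, and 33 of the 40 tumour points lie below 3 CPM, the others being Mpo in both osteosarcomas and soft tissue sarcoma replicate 2, and S100a8 and S100a9 in both soft tissue sarcomas.

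Among the primary granule genes, Mpo, which encodes the enzyme that makes hypochlorous acid, had 8.26 and 441.8 CPM in the NG2 cells, 20.6 and 22.7 in the osteosarcomas, and 2.15 and 5.42 in the soft tissue sarcomas. Both osteosarcomas lay between the NG2 libraries, and both soft tissue sarcomas lay below all other libraries. Elane, the elastase, had 8.81 and 372.8 CPM in the NG2 cells, 0 and 0.142 in the osteosarcomas, and 0.285 and 0 in the soft tissue sarcomas. All 4 tumours were below both NG2 libraries, and the only counts there were 4 in osteosarcoma replicate 2 and 17 in soft tissue sarcoma replicate 1.

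Prtn3, encoding proteinase 3, had 1.22 and 59.2 CPM in the NG2 cells, 0.322 and 1.71 in the osteosarcomas, and 1.38 and 0.741 in the soft tissue sarcomas. The tumours overlapped NG2 replicate 1 on both sides. Ctsg, encoding cathepsin G, had 0.72 and 17.2 CPM in the NG2 cells, 0.284 and 0 in the osteosarcomas, and 0 in both soft tissue sarcomas. The count of 0 in the soft tissue sarcomas allows a level of up to 0.0336 CPM over the group, the value of 3 counts.

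Among the secondary granule genes, Ngp, encoding neutrophilic granule protein, had 23.1 and 1298.3 CPM in the NG2 cells, 0.0569 and 0.142 in the osteosarcomas, and 0.201 and 0 in the soft tissue sarcomas. Ngp was the member with the highest CPM in both NG2 libraries, and all 4 tumours were below both of them. Camp, encoding the antimicrobial peptide cathelicidin, had 2.41 and 152.9 CPM in the NG2 cells, 0.0758 and 2.06 in the osteosarcomas, and 0.168 and 0.135 in the soft tissue sarcomas. The spinal osteosarcoma came close to NG2 replicate 1, and the other tumours were far lower.

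Ltf, encoding the iron-binding protein lactoferrin, had 4.57 and 156.3 CPM in the NG2 cells, 0 in both osteosarcomas, and 0.117 and 0.101 in the soft tissue sarcomas. The count of 0 allows up to 0.0371 CPM over the osteosarcomas. Lcn2, encoding lipocalin 2, which captures bacterial siderophores and is also made by epithelial cells, had 1.22 and 67.2 CPM in the NG2 cells, 0.208 and 0.178 in the osteosarcomas, and 1.76 and 0.0674 in the soft tissue sarcomas. Soft tissue sarcoma replicate 1 was above NG2 replicate 1 for Lcn2, so those groups overlapped.

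Of the cytosolic pair, S100a8 had 8.2 and 412.9 CPM in the NG2 cells, 0.171 and 1.14 in the osteosarcomas, and 4.13 and 6.87 in the soft tissue sarcomas. S100a9 had 8.98 and 402.6 CPM in the NG2 cells, 0.474 and 0.64 in the osteosarcomas, and 3.96 and 6.44 in the soft tissue sarcomas. For both genes the order of the groups was the same, with both NG2 libraries highest, both soft tissue sarcomas in the middle and both osteosarcomas lowest.

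NG2 replicate 1 was the second highest library for 7 of the 10 genes. The exceptions were Mpo, where both osteosarcomas were above it, Prtn3, where the spinal osteosarcoma and soft tissue sarcoma replicate 1 were above it, and Lcn2, where soft tissue sarcoma replicate 1 was above it. Of the 40 tumour values, 33 were below 3 CPM, and 4 genes (Elane, Ctsg, Ngp and Ltf) had 0 counts in at least 1 tumour library. Counts of 0 allow up to 0.0569 CPM in osteosarcoma replicate 1, 0.107 in osteosarcoma replicate 2 and 0.101 in soft tissue sarcoma replicate 2.

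Levels of different genes were compared per kilobase of exon. In NG2 replicate 2 the highest were Ngp at 1062.4, S100a9 at 771.3 and S100a8 at 594.9 CPM per kilobase, followed by Elane at 378.8, Camp at 201.7 and Mpo at 129.0. Ltf, Prtn3, Lcn2 and Ctsg were lower, between 45.3 and 16.7 CPM per kilobase. NG2 replicate 1 held the same genes in the top 3, with Ngp at 18.9, S100a9 at 17.2 and S100a8 at 11.8, and Lcn2 was lowest at 0.465. In the osteosarcomas Mpo led with 6.01 and 6.63 CPM per kilobase, and in the soft tissue sarcomas S100a9 led with 7.59 and 12.3, ahead of S100a8 with 5.95 and 9.9.

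Every granule gene was higher in NG2 replicate 2 than in NG2 replicate 1, by factors from 23.9 to 63.4. Replicate 2 was above replicate 1 by 42.3-fold for Elane (exact 95% counting interval 37.9 to 47.4), 53.5-fold for Mpo (47.7 to 60.2), 48.6-fold for Prtn3 (36.1 to 67.0) and 23.9-fold for Ctsg (16.2 to 36.9). The secondary granule genes differed by 56.1-fold for Ngp (52.4 to 60.2), 63.4-fold for Camp (51.3 to 79.3), 34.2-fold for Ltf (29.3 to 40.1) and 55.1-fold for Lcn2 (41.0 to 76.1). S100a8 differed by 50.3-fold (44.9 to 56.7) and S100a9 by 44.9-fold (40.2 to 50.2). Ctsg and Ltf had the smallest factors, and the intervals of Ctsg and Ngp do not meet. The median over the 10 genes was 49.5, against 0.969 over the 17584 tested genes with over 3 counts in replicate 1. At least a 10-fold excess was shown by 10 of 10 members and by 1.23% of those genes. No test can be made between 2 single libraries.

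Other lists moved with the granule genes between these 2 libraries, and some moved against them. Of 17 genes of mature neutrophils with a value, 11 were at least 10-fold higher in replicate 2, with a median ratio of 15.3 and a range from 0.677 to 60.1, and the summed level of the list went from 326.5 to 1205.1 CPM. Of 17 other granule and secreted neutrophil genes, 8 were at least 10-fold higher, with a median of 5.87. Markers of mast cells, basophils and eosinophils had a median of 2.87, with sums of 501.5 and 1480.8 CPM, and monocyte and macrophage markers a median of 1.43, with sums of 942.6 and 2272.3 CPM. All 7 B cell markers were lower in replicate 2, with ratios from 0.28 to 0.524 and sums of 4995.3 and 1675.9 CPM, and erythroid and platelet markers had a median of 0.349. Pericyte markers had a median of 1.29, with sums of 898.1 and 1435.0 CPM. The part of these other cell types in the granule values was not tested.

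**Figure D2:**
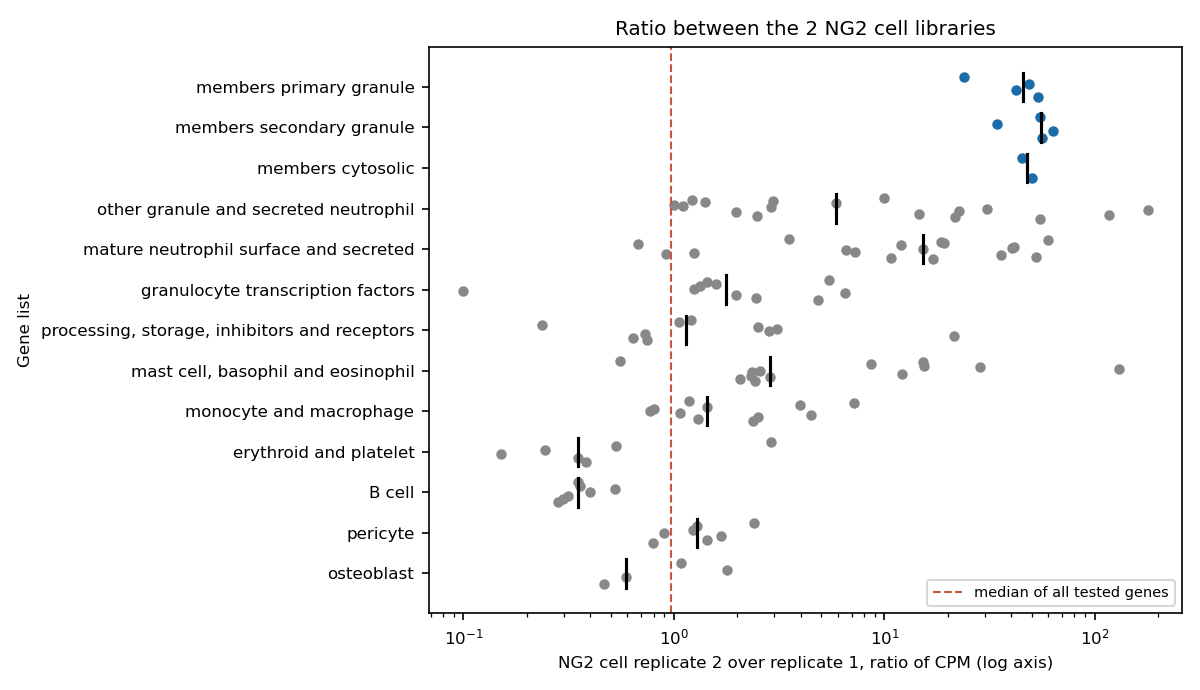
Ratio of TMM-scaled CPM in NG2 replicate 2 over NG2 replicate 1 (log axis), 1 point per gene, by gene list. The 10 granule genes sit between 23.9 and 63.4, the mature neutrophil genes spread from 0.677 to 60.1, and all 7 B cell markers sit below 1; 2 genes with 0 counts in replicate 2 are not drawn.

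Although the levels differed, the proportions among the 10 genes were close in the NG2 libraries. Ngp took 34.3% of the members' counts in replicate 1 and 38.4% in replicate 2. S100a8 took 12.1% and 12.2%, S100a9 13.3% and 11.9%, Mpo 12.2% and 13.1%, and Elane 13% and 11%. The remaining 5 genes were each below 7% in both. The share of a gene in replicate 2 was between 0.477 times (Ctsg, from 1.07% to 0.51%) and 1.27 times (Camp, from 3.57% to 4.52%) that in replicate 1. Counts of Elane were 1.07 and 0.844 times those of Mpo, counts of Ngp were 2.8 and 2.94 times those of Mpo, and counts of S100a8 were 0.914 and 1.03 times those of S100a9.

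The tumours had other proportions. Mpo took 92.8% and 79.1% of the members' counts in the osteosarcomas, while Elane counts there were at most 0.00627 times those of Mpo. Camp took 7.19% and Prtn3 5.95% in the spinal osteosarcoma, against 0.342% and 1.45% in the tibial one. In the soft tissue sarcomas S100a8 took 29.2% and 34.8%, S100a9 28% and 32.5%, and Mpo 15.2% and 27.4%, and Lcn2 took 12.5% in replicate 1 and 0.341% in replicate 2. S100a8 and S100a9 stayed near 1 to 1 in the soft tissue sarcomas, at 1.04 and 1.07, but stood at 0.36 and 1.78 in the osteosarcomas, where the 2 genes together held 84 counts. Between the libraries of a tumour group, the ratio of replicate 2 to replicate 1 had a median of 3.32 over 6 members in the osteosarcomas and 1.63 over 5 members in the soft tissue sarcomas, counting members with over 3 counts in both.

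**Figure D3:**
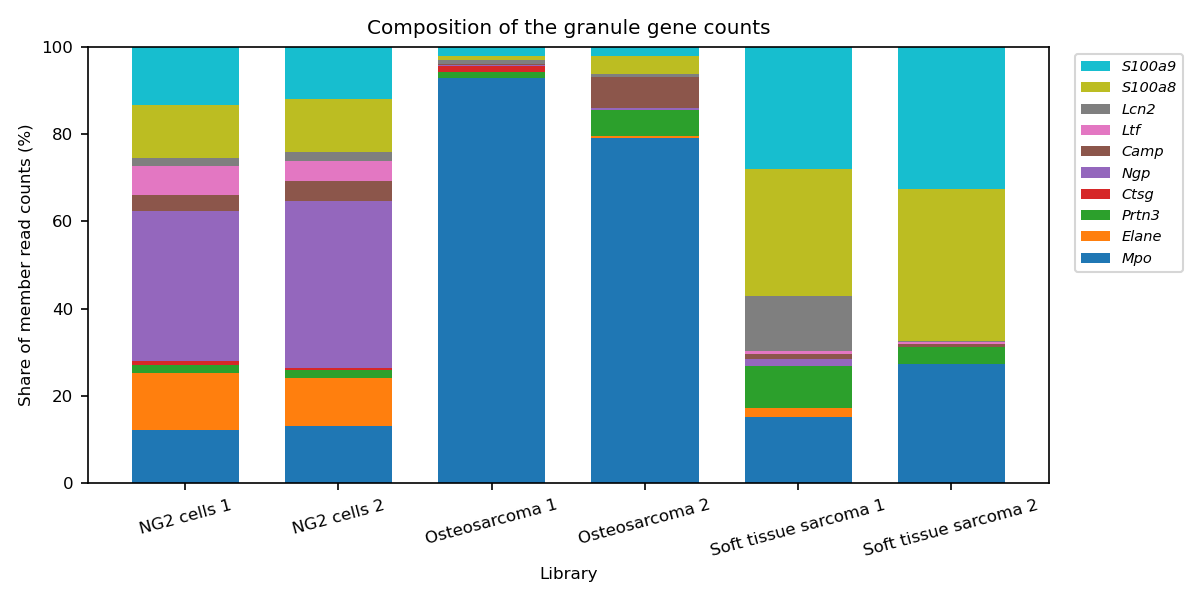
Share (%) of each of the 10 granule genes in their summed counts, 1 bar per library. The 2 NG2 bars have nearly the same make-up, led by Ngp at 34.3% and 38.4%, whereas Mpo takes 92.8% and 79.1% in the osteosarcomas and S100a8 with S100a9 most of the soft tissue sarcomas.

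In the osteosarcomas against the NG2 cells, 5 of the 10 granule genes fell and none rose by edgeR's quasi-likelihood test with Benjamini-Hochberg adjustment at 0.05 over all 19024 genes. That test called 11.0% of all genes lower and 10.5% higher. Ngp fell most among the members with counts in both groups, with a log2 fold change of -12.79 ± 2.55 (SE, adjusted p = 0.0228). The log2 fold change was -11.71 ± 2.63 for Elane (adjusted p = 0.0305), -8.54 ± 1.9 for S100a9 (adjusted p = 0.0296) and -8.41 ± 2.12 for S100a8 (adjusted p = 0.0405). Ltf, with 0 counts in both osteosarcomas, was at least 2168.3-fold lower, taking 3 counts over the group as the floor (adjusted p = 0.0287). The calls thus included secondary granule genes, a primary granule protease and the cytosolic pair.

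The other 5 did not pass, with log2 fold changes of -3.38 ± 1.55 for Mpo (adjusted p = 0.163), -4.92 ± 1.82 for Prtn3 (0.101), -5.85 ± 2.2 for Ctsg (0.119), -6.24 ± 2.22 for Camp (0.0927) and -7.44 ± 2.33 for Lcn2 (0.0687). Both osteosarcomas were below both NG2 libraries for 8 of the 10 genes, all but Mpo and Prtn3, as they were for 32.4% of all tested genes. The median log2 fold change was -7.92 over the members and 0.04 over all tested genes. The count depended on the libraries: 7 members fell without NG2 replicate 1, where 3.93% of genes were called lower, and 2 without NG2 replicate 2, where 3.52% were. Fold changes also moved when 1 library of any group was left out. For the called members with counts in both osteosarcomas, log2 fold changes then ran from -13.77 to -7.89 for Ngp. They ran from -10.23 to -3.66 for S100a8 and from -9.52 to -4.00 for S100a9. Mpo changed its direction without NG2 replicate 2, with a log2 fold change of 1.40, and DESeq2 called 10 of 10 lower, with 18.4% of all genes, whereas limma voom called 0, with 0 at an unadjusted p under 0.05.

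In the soft tissue sarcomas against the NG2 cells, 3 of the 10 granule genes fell, all of them also among the 5 called in the osteosarcomas, and the comparisons share the NG2 libraries. The same test called 9.4% of all genes lower and 9.89% higher. The log2 fold change was -12.37 ± 2.48 for Ngp (adjusted p = 0.0252), -10.12 ± 2.38 for Elane (adjusted p = 0.0366) and -9.46 ± 2.08 for Ltf (adjusted p = 0.0388). Ctsg, with 0 counts in both soft tissue sarcomas, was at least 267.2-fold lower but missed the threshold (adjusted p = 0.0625). The cytosolic genes were at -5.26 ± 1.8 for S100a8 (adjusted p = 0.0891) and -5.31 ± 1.61 for S100a9 (0.0671).

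Mpo was at -5.90 ± 1.75 (adjusted p = 0.0637), Prtn3 at -4.82 ± 1.8 (0.108), Camp at -8.95 ± 2.55 (0.0578) and Lcn2 at -5.18 ± 2.06 (0.125) by the same test. Both soft tissue sarcomas were below both NG2 libraries for 8 of the 10 genes, all but Prtn3 and Lcn2, as they were for 34.6% of all tested genes. The median log2 fold change was -7.43 over the members, or -6.98 with Ctsg at its bound, and 0.00 over all tested genes. Without NG2 replicate 1 the count of members that fell was 5, with 2.01% of genes called lower, and without NG2 replicate 2 it was 0, with 3 at an unadjusted p under 0.05 and 1.95% of genes called lower. Without a soft tissue sarcoma library the test called nothing in the whole table, so those fits cannot decide whether the members fell. For Ltf, the called member with counts in both soft tissue sarcomas, leaving out 1 library of any group gave log2 fold changes from -10.42 to -5.32. DESeq2 called 10 of 10 lower, with 17.2% of all genes, and limma voom 0, with 1 at an unadjusted p under 0.05.

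Between the tumour types, 0 of the 10 granule genes were called by edgeR, and 0 had an unadjusted p under 0.05. The test called 0.142% of all genes in either direction. DESeq2 called 0 members, with 2 at an unadjusted p under 0.05, and limma voom called 0, with 0 at that level. With either NG2 library left out, 4 members had an unadjusted p under 0.05. edgeR then called 0 genes of the whole table, so the 0 members called there says nothing about these genes. Mpo was lower in both soft tissue sarcomas than in both osteosarcomas, at -2.52 ± 1.51 on the log2 scale (adjusted p = 0.476), and 24.5% of all genes separated in that direction. S100a8 at 3.15 ± 1.74 (adjusted p = 0.44), S100a9 at 3.23 ± 1.55 (0.383) and Ltf, with 10 counts against 0, were higher in both soft tissue sarcomas, a separation shown by 25.8% of all genes. The other 6 members overlapped between the tumour types.

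**Figure D4:**
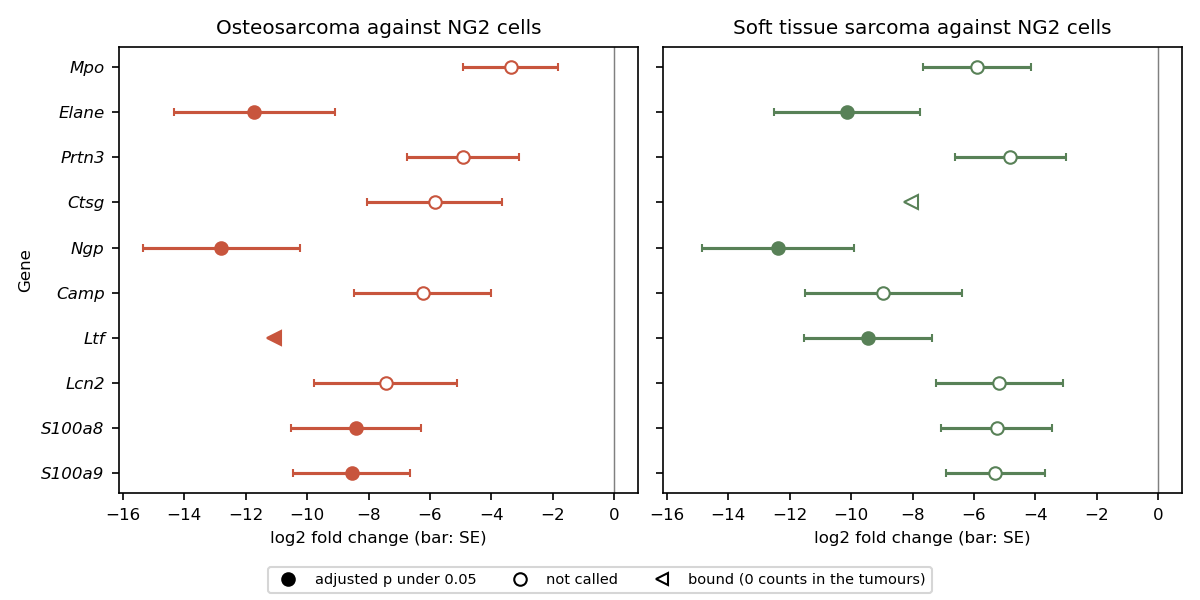
Fitted log2 fold change (± SE, edgeR) of the 10 granule genes in each tumour type against the NG2 cells. Filled points mark an adjusted p under 0.05. Genes with 0 counts in a tumour group are triangles at the bound, without SE. Every value is below 0, from -3.38 for Mpo to -12.79 for Ngp among genes with counts in both groups of the osteosarcoma comparison.

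Other proteins of neutrophil granules and secretions, 18 genes tested of 19 listed, gave 5 that fell and 1 that rose in the osteosarcomas, and 2 that fell in the soft tissue sarcomas, with median log2 fold changes of -3.85 and -3.11. Beside these, 11.0% of all genes were called lower and 10.5% higher in the osteosarcomas and 9.4% lower in the soft tissue sarcomas, so the 2 genes that fell in the soft tissue sarcomas were near the share over all genes. Cybb, the catalytic subunit of the phagocyte oxidase, which macrophages and B cells also express, had 659.2 and 724.4 CPM in the NG2 cells, 80.4 and 41.1 in the osteosarcomas and 170.8 and 145.5 in the soft tissue sarcomas. It fell in both tumour types, with log2 fold changes of -3.51 in the osteosarcomas (adjusted p = 0.00718) and -2.13 in the soft tissue sarcomas (adjusted p = 0.0195), and unlike the 10 granule genes it was nearly equal in the NG2 libraries. Pglyrp1, a granule protein that binds bacterial peptidoglycan, fell in both, with log2 fold changes of -5.24 (adjusted p = 0.00853) and -3.73 (adjusted p = 0.0165). Cd177, a neutrophil surface and granule protein, had 4.74 and 107.0 CPM in the NG2 cells and 0 in both osteosarcomas, at least 1506.9-fold lower (adjusted p = 0.0409). Adam8, a metalloprotease, fell in the osteosarcomas, with a log2 fold change of -1.76 (edgeR adjusted p = 0.0346). In the soft tissue sarcomas its log2 fold change was 0.04 (adjusted p = 0.954).

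The gene of that list that rose was Mmp9, a gelatinase that osteoclasts also make, with 1.44 and 21.1 CPM in the NG2 cells, 199.7 and 5124.4 in the osteosarcomas and 263.4 and 121.3 in the soft tissue sarcomas (log2 fold change 7.88 and adjusted p = 0.047 in the osteosarcomas). It did not pass when either NG2 library was left out, and 0 genes of the list then rose. Mmp8, the neutrophil collagenase, had 1.69 and 196.6 CPM in the NG2 cells, 178.5 and 1.96 in the osteosarcomas and 1.04 and 2.06 in the soft tissue sarcomas. It was high in NG2 replicate 2 and in the tibial osteosarcoma only, and it was not called in either comparison with the NG2 cells. Mmp9 and Mmp8 were named after their values were seen. Without NG2 replicate 2 fewer genes of the list fell, with median log2 fold changes of -0.25 in the osteosarcomas and -0.0 in the soft tissue sarcomas. Without NG2 replicate 1 the medians were -3.58 and -3.34.

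Of the mature neutrophil list, 17 genes tested of 18 listed, 9 fell in the osteosarcomas and 4 in the soft tissue sarcomas, with medians of -6.64 and -3.33, where 11.0% and 9.4% of all genes were called lower. Il1r2, a decoy receptor for interleukin 1, had 49.5 and 62.1 CPM in the NG2 cells, 0.474 and 0.498 in the osteosarcomas and 6.64 and 4.41 in the soft tissue sarcomas, and fell in both, with log2 fold changes of -6.84 and -3.33 (adjusted p = 0.00419 and 0.00964). Trem1, a receptor that amplifies inflammatory signalling, had 15.2 and 109.6 CPM in the NG2 cells and at most 2.55 in a tumour, and it fell in both (adjusted p = 0.015 and 0.0417), as did Il1b, encoding interleukin 1 beta (adjusted p = 0.0114 and 0.0464).

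Some genes of mature neutrophils did not follow the granule genes, and they were named after their values were seen. Csf3r, the receptor for the granulocyte growth factor G-CSF, had 6.23 and 106.7 CPM in the NG2 cells, 4.34 and 0.96 in the osteosarcomas and 15.5 and 14.2 in the soft tissue sarcomas, so both soft tissue sarcomas were above NG2 replicate 1. Ly6g, the surface marker used to stain mouse neutrophils, had 2.8 CPM in NG2 replicate 2 and 0 counts in the other 5 libraries. Without NG2 replicate 2 the list had 3 genes that fell in the osteosarcomas and 2 in the soft tissue sarcomas, and without NG2 replicate 1 it had 10 and 3. The shares of all genes called lower were then 3.52% and 1.95% without replicate 2, and 3.93% and 2.01% without replicate 1.

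Of 10 transcription factors of granulocyte development, 2 fell in the osteosarcomas and 0 of 10 in the soft tissue sarcomas by edgeR, where 3 had an unadjusted p under 0.05. Over all tested genes, 11.0% were called lower in the osteosarcomas and 9.4% in the soft tissue sarcomas. Cebpe, which drives secondary granule genes, had 0.471 and 3.07 CPM in the NG2 cells, 0 in both osteosarcomas and 0.101 and 0.0337 in the soft tissue sarcomas, and was at least 47.8-fold lower in the osteosarcomas (adjusted p = 0.0386). Klf5 fell in the osteosarcomas, with a log2 fold change of -4.47 (edgeR adjusted p = 0.0374). Its soft tissue sarcoma values of 4.21 and 4.62 CPM lay between the NG2 values of 1.3 and 7.11. Gfi1, a repressor needed for neutrophil differentiation and also active in lymphoid cells, went the other way between the NG2 libraries, with 7.12 CPM in replicate 1 and 0.711 in replicate 2.

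Cebpa, the factor that commits progenitors to the granulocyte line, was present in every library, with 2.91 and 14.1 CPM in the NG2 cells, 7.11 and 14.0 in the osteosarcomas and 12.6 and 4.04 in the soft tissue sarcomas. Spi1, which encodes PU.1, had 15.7 and 19.4 CPM in the NG2 cells, 7.28 and 51.3 in the osteosarcomas and 26.1 and 26.3 in the soft tissue sarcomas. Both are also expressed in macrophages. Cebpb, Cebpd, Runx1, Myb and Cbfb did not pass in either comparison with the NG2 cells. The falls of factors in the osteosarcomas did not all pass with 1 NG2 library left out. The list's median log2 fold change there was -1.53 with all libraries, -1.99 without NG2 replicate 1 and -0.84 without NG2 replicate 2.

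Of 11 genes that process, store, inhibit or receive granule proteins, 3 fell in the osteosarcomas and 2 in the soft tissue sarcomas, against 11.0% and 9.4% of all genes. Srgn encodes serglycin, the proteoglycan that packs proteases into granules of many blood cells. It had 1034.4 and 659.3 CPM in the NG2 cells, 12.1 and 10.9 in the osteosarcomas and 45.7 and 55.3 in the soft tissue sarcomas, and it fell 73.6-fold (adjusted p = 0.00419) and 16.8-fold (adjusted p = 0.0074). Serpinb1a, an inhibitor of elastase, cathepsin G and proteinase 3, had 397.2 and 288.7 CPM in the NG2 cells, 4.85 and 10.8 in the osteosarcomas and 7.62 and 28.4 in the soft tissue sarcomas. It fell in both, with log2 fold changes of -5.46 (adjusted p = 0.0114) and -4.25 (adjusted p = 0.0198). Both genes were somewhat higher in NG2 replicate 1, opposite to the granule genes.

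Ctsc, the protease that activates the granule serine proteases, had 432.5 and 322.5 CPM in the NG2 cells, 157.4 and 204.9 in the osteosarcomas and 499.3 and 319.3 in the soft tissue sarcomas, and did not pass in either comparison (adjusted p = 0.0728 and 0.828). Slpi, an elastase inhibitor, had 23.5 and 507.4 CPM in the NG2 cells, 857.6 and 4.41 in the osteosarcomas and 2.03 and 3.91 in the soft tissue sarcomas. Like Mmp8, it was high in NG2 replicate 2 and in the tibial osteosarcoma. Serpina3n, a serine protease inhibitor, fell in the osteosarcomas, with a log2 fold change of -4.55 (edgeR adjusted p = 0.0372). In the soft tissue sarcomas its log2 fold change was -1.34 (adjusted p = 0.353). Serpinb6b and Serpina3g, from the same families, did not pass.

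Receptors for the granule proteins did not pass in either comparison with the NG2 cells. Tlr4, which binds the S100a8 and S100a9 complex, ran from 11.5 to 21.0 CPM over the 6 libraries, and Ager, another receptor for it, from 1.08 to 2.9. Slc22a17, a receptor for lipocalin 2, had 3.41 and 0.802 CPM in the NG2 cells and 10.3 and 13.2 in the osteosarcomas, at a log2 fold change of 2.48 (adjusted p = 0.0882). Lrp2, another lipocalin 2 receptor, had 0 counts in 3 libraries and at most 1.68 CPM. Fewer genes of the whole list of processing, storage, inhibitor and receptor genes fell with either NG2 library left out. Its median log2 fold changes were -2.69 in the osteosarcomas and -1.93 in the soft tissue sarcomas without NG2 replicate 1. Without NG2 replicate 2 they were -1.25 and -0.29.

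Markers of the other cells in which some granule genes are known were also read. Of the 11 monocyte and macrophage markers, Csf1r, C1qa, C1qb and C1qc rose in both tumour types, against 10.5% and 9.89% of all genes, and Cd14, Ccr2 and F13a1 fell in the osteosarcomas (log2 fold changes of -2.87, -3.58 and -2.44, edgeR adjusted p = 0.0489, 0.046 and 0.0243). The list's median log2 fold change was -0.13 in the osteosarcomas and 0.91 in the soft tissue sarcomas. When NG2 replicate 1 was left out, 0 genes of the list rose and 2 fell in the osteosarcomas, and when NG2 replicate 2 was left out, 0 rose and 0 fell. Csf1r, the receptor for the macrophage growth factor, had 60.8 and 79.1 CPM in the NG2 cells, 157.5 and 380.3 in the osteosarcomas and 367.9 and 359.2 in the soft tissue sarcomas. Across the tumours the summed macrophage markers were 1530.2, 1793.6, 4111.8 and 3326.4 CPM, in the order of the 2 osteosarcomas and 2 soft tissue sarcomas, while S100a8 and S100a9 were lower in the osteosarcomas. The part of these cells in the S100a8, S100a9 and Mpo values of the tumours was not tested. Ctsg is also known in mast cells. The mast cell chymase gene Cma1, named after its values were seen, had 190.5 and 546.5 CPM in the NG2 cells, where Ctsg had 0.72 and 17.2. In the osteosarcomas Cma1 had 0 and 2.6 CPM and Ctsg 0.284 and 0. In the soft tissue sarcomas Cma1 had 53.0 and 0.0674 CPM, and Ctsg had 0 counts in both. The part of mast cells in the Ctsg values was not tested. Of 7 B cell markers, 7 fell in each tumour type, against 11.0% of all genes in the osteosarcomas and 9.4% in the soft tissue sarcomas. Not all 7 passed with 1 NG2 library left out. Without NG2 replicate 1 their median log2 fold changes were -9.17 in the osteosarcomas and -10.05 in the soft tissue sarcomas. Without NG2 replicate 2 they were -10.65 and -11.83.

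The genes whose pattern over the 6 libraries was most like that of the 10 together were sought by Pearson's r between log2(CPM + 0.5) and the log2 summed CPM, among 9539 protein-coding genes. The 8 closest were Il1f9 (0.9938), N4bp1 (0.9928), Dnm3 (0.9908), Fcnb (0.9904), Prss34 (0.99), Ear2 (0.9868), Retnlg (0.977) and Kat6b (0.9768). With NG2 replicate 2 so far above the rest, these values rest mostly on that 1 library, and they are a description only. Fcnb, encoding a granule lectin of the ficolin family, had 1.3 and 28.3 CPM in the NG2 cells and 0 counts in all 4 tumours. Retnlg, a resistin-like gene of neutrophils, had 7.09 and 293.0 CPM in the NG2 cells and at most 0.996 in a tumour. N4bp1 and Kat6b differed far less, with N4bp1 at 33.6 and 57.1 CPM in the NG2 cells and between 28.7 and 32.0 in the tumours. The 10 genes' own r with their sum ran from 0.899 for S100a8 to 0.989 for Ctsg.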

How the data were processed

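Polyadenylated RNA of 6 mouse samples was read by paired-end sequencing. RNA was isolated with Trizol, per the labels' protocols, and about 10 ng of each sample was made into cDNA by oligo(dT) priming with template switching and 20 cycles of PCR, which favours messages that amplify well. The authors deposited raw read counts per Ensembl gene ID. The submitters' processing notes name Trim Galore, cutadapt, FastQC, STAR, HTSeq, DESeq2 and the builds GRCm38 and mm10; their order, the annotation release and the strand setting are not given in the sources used here.

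The members and lists were chosen with earlier results of these data known. Of 38561 IDs, 36723 matched GENCODE M21, from which symbols and positions were taken. Rows that name no gene were left out. edgeR 4.0.16 (R 4.3.3) was run with TMM scaling, filterByExpr (min.count 10, min.total.count 15) and the quasi-likelihood F test, two-sided, on all 6 libraries in 3 groups without covariates. The common dispersion was 0.334, with 3 residual degrees of freedom, and p-values were adjusted by Benjamini-Hochberg over 19024 genes. A permutation test of 2 against 2 libraries cannot go below p = 0.333. The script was tested on simulated data. DESeq2 1.42.0, limma voom (limma 3.58.1), other scalings and filters, a replicate block and fits without each library were alternatives. Shares have 95% Wilson intervals, and a count of 0 was given a floor of 3 counts. Named were all members, up to 4 genes per other list with the smallest p in osteosarcoma against NG2 cells, all transcription factors and processing genes, and the 8 genes closest in pattern; other genes were named after their values were seen.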

Additional observations from a re-analysis of the deposited data

How the results depend on the processing

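The count of granule genes that fell in the osteosarcomas was 5; it was 10 with DESeq2, 0 with limma voom, 1 with only the 2 groups compared, and 0 to 7 when 1 library was left out. In the soft tissue sarcomas it was 3; it was 8 with no low-count filter, 10 with DESeq2, 0 with limma voom, 5 with only the 2 groups compared, and 0 to 5 when 1 library was left out. The cause was not tested. Between the tumour types it was 0 under every alternative run. However, only 4 members were tested there in the fit of the 2 groups alone, and with either NG2 library left out 0 genes of the whole table were called. Replicate numbers did not pair the samples, with correlations of deviations of 0.049, -0.00277 and -0.0864, and with the replicate as a block 5 members fell in the osteosarcomas, 0 in the soft tissue sarcomas (8 at an unadjusted p under 0.05) and 0 differed between the tumours.

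Over single members and alternatives, 326 values kept direction and side of the threshold, 29 passed it newly, 45 no longer passed and 9 changed direction. Leaving out 1 library gave log2 fold changes from -4.36 to 1.40 for Mpo in the osteosarcomas against NG2 cells and, between the tumour types, from -4.15 to 5.97 for Elane, -0.64 to 1.73 for Prtn3, -4.85 to 1.13 for Ngp, -3.68 to 1.01 for Camp and -1.48 to 3.17 for Lcn2. Prtn3 and Ngp changed direction in a further fit each, at -0.42 and -0.15, and Ngp with limma voom at -0.48. Ctsg was not tested at a minimum count of 50, and no value was given for Ctsg without osteosarcoma replicate 1 or Ltf without soft tissue sarcoma replicate 1 between the tumour types, where both groups held 3 counts or fewer. Summed CPM kept within the replicate spread under 3 scalings. For the NG2 cells, with sums of 67.5 and 3381.1 CPM, that spread is too wide for this check to decide anything. With 2 libraries a group and 1 NG2 library far above the other, the size of a fall is poorly known, and tumour levels under about 0.1 CPM rest on a few counts.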

Other observations

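Several genes of eosinophils and basophils went the same way as the granule genes between the NG2 libraries, and they were singled out after their values were seen. Prss34, a basophil and mast cell protease, had 0.499 CPM in NG2 replicate 1 and 64.6 in replicate 2, with 0 counts in all 4 tumours. Prg2, the eosinophil major basic protein, had 6.4 and 98.6 CPM in the NG2 cells and was at least 1416.2-fold lower in the osteosarcomas, where it had 0 counts (edgeR adjusted p = 0.0206). Epx, eosinophil peroxidase, had 0.416 and 11.8 CPM in the NG2 cells and 0 in every tumour. Over Prss34, Prg2, Epx, Ear1 and Ear2, the ratio of replicate 2 to replicate 1 ran from 8.65 to 129.6, whereas the eosinophil marker Siglecf, with 6 and 4 counts, had a ratio of 0.552. The mast cell genes Cpa3, Mcpt4, Cma1 and Tpsb2 differed less, by 2.07 to 2.87 times. In the soft tissue sarcomas these mast cell genes were high in 1 library only, with Tpsb2 at 38.2 CPM in replicate 1 and 0.0674 in replicate 2, and Cpa3 at 14.1 CPM and 0 counts. Ms4a3, a gene of granulocyte precursors, had 0.693 and 37.9 CPM in the NG2 cells, 1.17 in the spinal osteosarcoma and 0 counts in the other 3 tumours.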
